A study of Mus musculus with 36 samples.

Results

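Type I interferon stimulated genes are the genes that cells switch on when interferon alpha or beta binds its receptor, and 35 of them, a list of classical members, were followed here among the 54532 gene identifiers of a whole-brain RNA count table. They were found by symbol, all 35 were in the table, and all 35 passed the filter on low counts that left 18438 genes for testing. Whole brains came from wild-type C57BL/6 mice at day 19, the peak of experimental autoimmune encephalomyelitis (EAE), a model in which T cells primed against myelin invade the central nervous system. All EAE mice were immunized under the skin with MOG35-55, a myelin peptide, emulsified in complete Freund's adjuvant (CFA). They also received pertussis toxin at that time and again the next day. EAE mice of 3 kinds were compared with 8 naive mice: 9 were left untreated, 9 were gavaged daily with corn oil as vehicle, and 10 were gavaged daily with farnesol (trans,trans-farnesol, an isoprenoid alcohol) at 100 mg/kg/day in corn oil. The EAE mice received adjuvant and toxin and the naive mice did not, so the effects of these agents and of the autoimmune disease cannot be told apart. Each library is labelled as 1 replicate of its group, and p-values measure the spread between these replicates.

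Interferon alpha and beta signal through the receptor pair Ifnar1 and Ifnar2 and the kinases Jak1 and Tyk2, which lead to activation of the complex ISGF3. This complex, which contains Stat2 and Irf9, binds the interferon stimulated response element (ISRE) in target promoters. Interferon gamma uses a different receptor and acts mainly through the GAS element, and the target genes of both types overlap. In EAE and in multiple sclerosis, interferon beta is known to dampen disease, and in brain the genes are expressed by microglia, infiltrating myeloid cells, astrocytes and other cells.

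The total count per library ranged from 14.7 M to 24.2 M. Levels are library-size-scaled counts (CPM, with trimmed mean scaling, TMM), changes are log2 ± standard error (SE), and a gene was called when its edgeR quasi-likelihood p, adjusted by Benjamini-Hochberg over the 18438 genes, was below 0.05. The libraries formed 2 sets that no label names, told apart by CT010467.1, a gene of ribosomal RNA. Set 1, with 2816 CPM or less, held all untreated and vehicle libraries and farnesol libraries 1 to 3, and set 2, with 5157 CPM or more, held farnesol libraries 4 to 10 and all naive libraries. Set and disease therefore coincide for untreated and vehicle EAE, and only the farnesol group spans both sets. Markers of neurons, astrocytes and oligodendrocytes were present in every library, with summed levels of at least 3840, 2870 and 3700 CPM. Against naive brain, neuron markers fell in 3, 4 and 5 of 5 genes, astrocyte markers in 2, 1 and 4 of 5 and oligodendrocyte markers in 1, 2 and 2 of 5 in untreated, vehicle and farnesol EAE, and none rose. Cerebellar genes were low in 3 libraries (1 untreated, 1 farnesol, 1 naive), and the interferon counts against naive below were 33 in each comparison without them.

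In all 3 EAE groups, 33 of the 35 genes rose against naive brain and none fell. Of all genes tested, 13.6% rose in untreated EAE, 16.3% in vehicle EAE and 17.9% in farnesol EAE, and 11.3%, 15.2% and 16.3% fell. The same 33 genes rose in each comparison, which share the naive animals. The median log2 change over the 35 genes was 1.70 in untreated, 1.64 in vehicle and 1.52 in farnesol EAE, and the median over all tested genes was -0.0055, 0.00426 and 0.00516. A rise of at least 2-fold was called for 27, 26 and 25 of the 35 genes in these groups, in that order, against 3.36%, 3.55% and 3.66% of all genes tested. Ifit2 and Cmpk2 were the pair that did not pass in any comparison.

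With library set added as a term to the model, an alternative that lets the farnesol group alone separate set from disease, 0 of the 35 genes passed in untreated EAE, 0 in vehicle EAE and 25 in farnesol EAE. The median log2 changes were then 0.94, 0.93 and 1.29. The set term rests on 3 farnesol libraries of set 1 against 7 of set 2. Farnesol replicate 3, in set 1, was the highest farnesol animal for 35 of 35 genes. Over all genes that fit called 100 genes that rose in untreated EAE, 362 in vehicle EAE and 2502 in farnesol EAE. Within set 2 alone, 7 farnesol against 8 naive animals, 33 of 35 genes rose, and of all 17283 genes tested in that fit 2573 rose and 2299 fell.

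**Figure D1:**
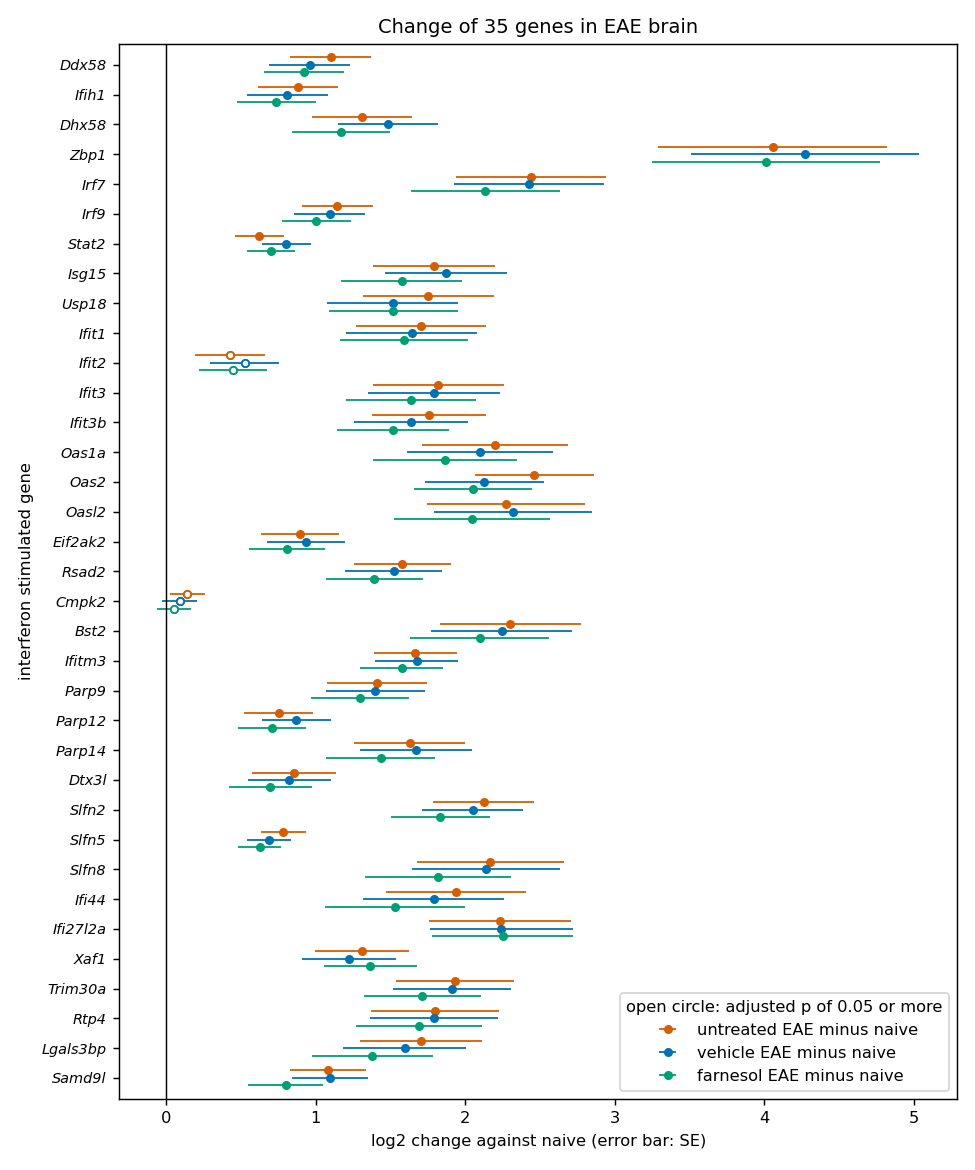
Log2 change against naive brain (x axis, with SE bars) of the 35 genes (rows, grouped by role) in untreated, vehicle and farnesol EAE. All points lie right of 0, Zbp1 lies farthest right at 4.06, 4.27 and 4.01, and the open circles mark Ifit2 and Cmpk2, which did not pass.

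Promoters of the family were searched for the letters by which ISGF3 targets are recognised. The RefSeq promoter table (GRCm38.p6, 250 bases before to 50 bases after each start) held 27 of the 35 genes with 31 promoters. Ifi27l2a, Oas2, Usp18, Dhx58, Parp9, Parp14, Rtp4 and Zbp1 were not matched. The ISRE letters GAAANNGAAA, searched on both strands (TTTCNNTTTC on the other), were in 17 of these 31 promoters (54.8%), which belong to 15 of the 27 genes, against 3.44% of all 32851 promoters in the table. The GAS letters TTCNNNGAA, which read the same on both strands, were in 5 of 31 (16.1%), against 8.3% of all promoters. The windows below show such matches, with up to 20 bases on either side, in genes of 5 roles described further on. They include each gene with more than 1 match whose window ends before the start. The windows of Oas1a and Ifitm3, with 2 matches each, run past the start and are not printed. Letters are given 5' to 3' on the gene's strand, and capitals mark GAAANNGAAA or TTTCNNTTTC, merged where matches overlap.
Isg15 (chr4:156200855-156200916, minus strand): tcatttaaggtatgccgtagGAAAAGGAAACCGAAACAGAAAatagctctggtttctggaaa
Ifit1 (chr19:34640765-34640833, plus strand): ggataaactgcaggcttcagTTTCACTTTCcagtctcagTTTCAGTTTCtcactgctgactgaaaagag
Ifit3 (chr19:34583353-34583436, plus strand): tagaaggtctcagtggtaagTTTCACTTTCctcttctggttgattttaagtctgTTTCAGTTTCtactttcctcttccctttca
Ifit3b (chr19:34607749-34607832, plus strand): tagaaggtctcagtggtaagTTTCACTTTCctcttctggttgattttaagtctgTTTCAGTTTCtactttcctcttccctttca
Bst2 (chr8:71537567-71537622, minus strand): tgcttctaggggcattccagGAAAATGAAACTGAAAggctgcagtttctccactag
Rsad2 (chr12:26456543-26456592, minus strand): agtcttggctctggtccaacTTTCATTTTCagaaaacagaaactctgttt
Stat2 (chr10:128270256-128270305, plus strand): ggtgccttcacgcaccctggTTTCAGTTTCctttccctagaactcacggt
Isg15 held 3 overlapping matches that began 78 bases before its start. The windows of the paralogs Ifit3 and Ifit3b hold the same letters. Irf7, Irf9, Ifit2 and Cmpk2 were among the 12 matched genes with no ISRE letters in the window, which says only that this spelling is not there. A match is a description of letters and was not tested as a binding site.

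All 4 sensor genes rose in all 3 EAE groups. Zbp1, a sensor of Z-form nucleic acids that can start necroptosis (chr2:173206612-173218923, minus strand, GRCm38), measured (lowest, median and highest animal) 1.45, 5.46 and 12 CPM in untreated EAE, 0.862, 2.57 and 27.1 CPM in vehicle EAE, 1.18, 3.75 and 18.5 CPM in farnesol EAE and 0.0456, 0.317 and 0.644 CPM in naive brains. Every EAE animal of each group was above every naive animal, and the naive libraries held 1 to 14 counts of it each. The log2 change of Zbp1 was 4.06 ± 0.77 in untreated EAE (edgeR adjusted p = 0.000175), 4.27 ± 0.76 in vehicle EAE (edgeR adjusted p = 6.1e-05) and 4.01 ± 0.76 in farnesol EAE (edgeR adjusted p = 0.000121). Dhx58 (LGP2), which modulates the RNA sensors, changed by 1.31 ± 0.33, 1.48 ± 0.33 and 1.17 ± 0.33 in untreated, vehicle and farnesol EAE. Ddx58, the gene of the RNA sensor RIG-I, changed by 1.10 ± 0.27, 0.96 ± 0.27 and 0.92 ± 0.27 in the same order, and Ifih1, the gene of the long double-stranded RNA sensor MDA5, by 0.88 ± 0.27, 0.81 ± 0.27 and 0.74 ± 0.26. Ifih1 was among the smaller rises. It was not called in vehicle EAE without vehicle replicate 4 (0.56, edgeR adjusted p = 0.0845), nor in farnesol EAE without farnesol replicate 3 (0.60, edgeR adjusted p = 0.0748) or naive replicate 1 (0.70, edgeR adjusted p = 0.05).

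The transcription factor genes of the pathway also rose. Irf7, the factor that amplifies interferon alpha production and is itself interferon induced (chr7:141262706-141266481, minus strand), measured 5.12, 12.6 and 29.5 CPM in untreated EAE, 4.26, 7.75 and 55.7 CPM in vehicle EAE, 3.32, 11.2 and 34.5 CPM in farnesol EAE and 2.49, 2.66 and 3.75 CPM in naive brains. The untreated and vehicle animals were all above every naive animal, and the lowest farnesol animal fell inside the naive range. Its log2 change was 2.44 ± 0.50 in untreated EAE (edgeR adjusted p = 0.000437), 2.43 ± 0.50 in vehicle EAE (edgeR adjusted p = 0.000337) and 2.14 ± 0.50 in farnesol EAE (edgeR adjusted p = 0.00108). Irf9, the DNA-binding part of ISGF3, changed by 1.15 ± 0.24, 1.09 ± 0.24 and 1.00 ± 0.23 in untreated, vehicle and farnesol EAE, and Stat2, its partner, by 0.62 ± 0.16, 0.80 ± 0.16 and 0.70 ± 0.16. Irf7 overlaps Phrf1 on the other strand and Irf9 overlaps Rnf31 on the same strand. Among the genes of other roles, Parp14 overlaps Gm49730 and Rtp4 overlaps Gm45338 on the same strand. Dhx58, Eif2ak2 and Slfn5 overlap genes on the other strand. The use of strand in counting is not given in the sources used here.

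Isg15 encodes a ubiquitin-like protein that is attached to other proteins, and Usp18 encodes the protease that removes it and also restrains the receptor. Isg15 (chr4:156199424-156200818, minus strand) measured 2.24, 7.81 and 11.2 CPM in untreated EAE, 2.52, 3.46 and 27 CPM in vehicle EAE, 2.31, 5.7 and 11.7 CPM in farnesol EAE and 1.41, 2.14 and 2.35 CPM in naive brains. The vehicle animals were all above every naive animal, and the lowest untreated and farnesol animals fell inside the naive range. Its log2 change was 1.79 ± 0.41 in untreated EAE (edgeR adjusted p = 0.00124), 1.87 ± 0.41 in vehicle EAE (edgeR adjusted p = 0.000587) and 1.58 ± 0.40 in farnesol EAE (edgeR adjusted p = 0.00267). Usp18 changed by 1.75 ± 0.44, 1.52 ± 0.44 and 1.52 ± 0.43 in untreated, vehicle and farnesol EAE, and it overlaps Gm44148 on the other strand.

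Of the 4 IFIT genes, whose proteins bind foreign RNA, 3 rose and Ifit2 did not pass. Ifit3b (chr19:34607970-34613401, plus strand) measured 6.95, 13.2 and 26.9 CPM in untreated EAE, 5.12, 8.5 and 41.3 CPM in vehicle EAE, 4.97, 12.6 and 25.9 CPM in farnesol EAE and 3.56, 4.85 and 5.44 CPM in naive brains. Every untreated animal was above every naive animal, and the lowest vehicle and farnesol animals fell inside the naive range. The log2 change of Ifit3b was 1.76 ± 0.38 in untreated EAE (edgeR adjusted p = 0.000733), 1.64 ± 0.38 in vehicle EAE (edgeR adjusted p = 0.00111) and 1.52 ± 0.37 in farnesol EAE (edgeR adjusted p = 0.00196). Ifit1 changed by 1.70 ± 0.44, 1.64 ± 0.44 and 1.59 ± 0.43 in untreated, vehicle and farnesol EAE, and Ifit3 by 1.82 ± 0.44, 1.79 ± 0.44 and 1.64 ± 0.43. Ifit3 and Ifit3b share 51.2% and 45.0% of their 50-base words with other genes, chiefly each other, so their separate counts are uncertain. Ifit2 (chr19:34550694-34576419, plus strand), which has been linked to cell death and to antiviral defence in mouse brain, measured 11.9, 13.5 and 23.7 CPM in untreated EAE, 9.94, 14.1 and 45.1 CPM in vehicle EAE, 10.6, 14.9 and 28.2 CPM in farnesol EAE and 10.1, 12.3 and 14.1 CPM in naive brains. The ranges of all EAE groups overlapped the naive range. Its log2 change was 0.43 ± 0.23 in untreated EAE (edgeR adjusted p = 0.182), 0.53 ± 0.23 in vehicle EAE (edgeR adjusted p = 0.0812) and 0.45 ± 0.23 in farnesol EAE (edgeR adjusted p = 0.129). Without vehicle replicate 3, 5 or 7 Ifit2 was called in vehicle EAE, with edgeR adjusted p of 0.0456 to 0.048.

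The OAS genes make the short oligoadenylates that activate RNase L, and Eif2ak2 encodes PKR, the kinase that stops translation on double-stranded RNA. All 4 genes of this role rose in each EAE group. Oas2 (chr5:120730333-120749853, minus strand) measured 1.98, 5.11 and 11.6 CPM in untreated EAE, 1.28, 3.77 and 10.8 CPM in vehicle EAE, 2.02, 3.6 and 9.98 CPM in farnesol EAE and 0.599, 0.916 and 1.52 CPM in naive brains. The untreated and farnesol animals lay above all naive animals, and the lowest vehicle animals did not. The log2 change of Oas2 was 2.46 ± 0.40 in untreated EAE (edgeR adjusted p = 2.47e-05), 2.13 ± 0.40 in vehicle EAE (edgeR adjusted p = 0.000107) and 2.06 ± 0.39 in farnesol EAE (edgeR adjusted p = 0.000137). Oasl2 changed by 2.27 ± 0.53, 2.32 ± 0.53 and 2.05 ± 0.52 in untreated, vehicle and farnesol EAE, Oas1a by 2.20 ± 0.49, 2.10 ± 0.49 and 1.87 ± 0.48 and Eif2ak2 by 0.90 ± 0.26, 0.93 ± 0.26 and 0.81 ± 0.26. Oas1a shares 57.6% of its 50-base words with other genes, Oas1g and Oas1b among them. Slfn8, Rtp4 and Ifitm3, described further on, share 14.6%, 11.6% and 10.0% of theirs with other genes.

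Rsad2 encodes viperin, a radical SAM enzyme that makes a chain-terminating nucleotide, and its neighbour Cmpk2 encodes a mitochondrial nucleotide kinase that supplies the substrate. The pair lies on chromosome 12, Rsad2 at chr12:26442746-26456452, minus strand and Cmpk2 at chr12:26469204-26479837, plus strand. Rsad2 measured 2.41, 5.21 and 8.46 CPM in untreated EAE, 1.91, 4.48 and 11.2 CPM in vehicle EAE, 1.5, 4.27 and 7.89 CPM in farnesol EAE and 1.14, 1.73 and 2.36 CPM in naive brains, and Cmpk2 measured 26.3, 32 and 42.5 CPM in untreated EAE, 25.1, 29.7 and 50.8 CPM in vehicle EAE, 25.9, 30.8 and 42.1 CPM in farnesol EAE and 28.1, 30.5 and 33.3 CPM in naive brains. Rsad2 was above every naive animal in all untreated animals, whereas the Cmpk2 ranges of the EAE groups enclosed the naive range. Rsad2 changed by 1.58 ± 0.33 in untreated EAE (edgeR adjusted p = 0.000447), 1.52 ± 0.33 in vehicle EAE (edgeR adjusted p = 0.000498) and 1.39 ± 0.32 in farnesol EAE (edgeR adjusted p = 0.00105). The log2 change of Cmpk2 was 0.14 ± 0.11 in untreated EAE (edgeR adjusted p = 0.392), 0.09 ± 0.11 in vehicle EAE (edgeR adjusted p = 0.591) and 0.05 ± 0.11 in farnesol EAE (edgeR adjusted p = 0.747).

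Both membrane restriction genes rose. Ifitm3, which blocks fusion of viruses with endosomes (chr7:141009586-141010770, minus strand), measured 15.3, 29.9 and 50.1 CPM in untreated EAE, 12.3, 25.8 and 75.1 CPM in vehicle EAE, 18.3, 29.3 and 60.3 CPM in farnesol EAE and 9.44, 10.4 and 11.7 CPM in naive brains. No EAE animal of any group overlapped the naive range. Its log2 change was 1.67 ± 0.28 in untreated EAE (edgeR adjusted p = 3.97e-05), 1.68 ± 0.28 in vehicle EAE (edgeR adjusted p = 2.53e-05) and 1.57 ± 0.28 in farnesol EAE (edgeR adjusted p = 4.29e-05). Bst2 (tetherin), which holds budding virus at the cell surface, changed by 2.30 ± 0.47, 2.24 ± 0.47 and 2.10 ± 0.47 in untreated, vehicle and farnesol EAE. On the scale of mean CPM per kilobase of exon, Ifitm3 was the highest of the 35 genes in every group, at 48.9 in untreated, 49.3 in vehicle and 45.8 in farnesol EAE, against 15.4 in naive brain. Lgals3bp, at 24.1, followed in untreated EAE, and Ifi44, at 0.682, was the lowest of the 35 there.

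**Figure D2:**
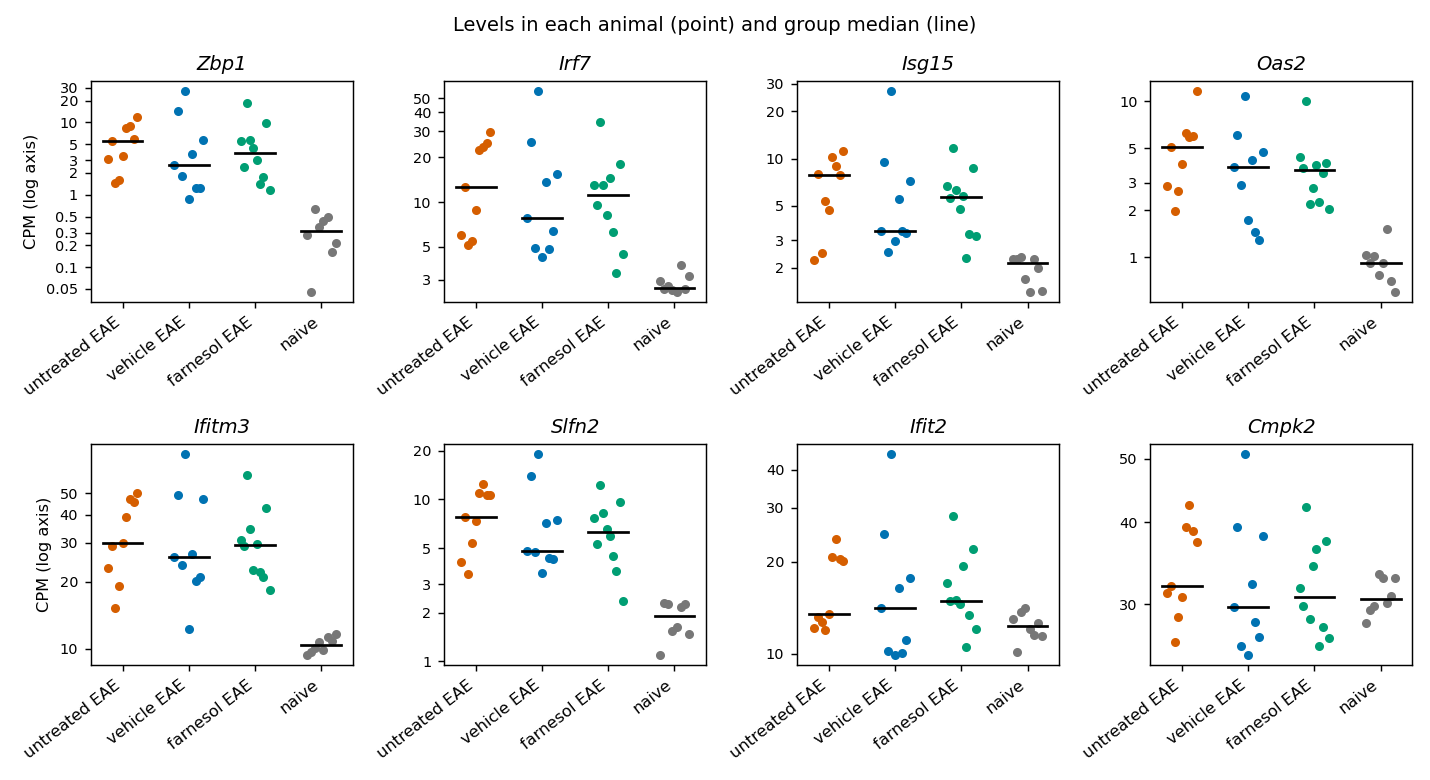
CPM (log axis) of 8 of the genes in each animal (points) of the untreated, vehicle, farnesol and naive groups, with the group median as a line. Zbp1, Ifitm3 and Slfn2 show no overlap between any EAE group and naive, and Ifit2 and Cmpk2 overlap in all groups.

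The 4 ADP-ribosylation genes rose in each group. Parp14, which encodes a mono-ADP-ribosyltransferase (chr16:35832874-35871544, minus strand), measured 5.65, 13.9 and 24.3 CPM in untreated EAE, 5.79, 8.6 and 46.2 CPM in vehicle EAE, 6.32, 10.8 and 28.8 CPM in farnesol EAE and 4.00, 4.67 and 5.84 CPM in naive brains. All farnesol animals were above all naive animals, and the lowest untreated and vehicle animals were not. The log2 change of Parp14 was 1.63 ± 0.37 in untreated EAE (edgeR adjusted p = 0.00134), 1.67 ± 0.37 in vehicle EAE (edgeR adjusted p = 0.000765) and 1.43 ± 0.37 in farnesol EAE (edgeR adjusted p = 0.00273). Parp9 and its partner, the ubiquitin ligase Dtx3l, overlap on opposite strands of chromosome 16 and changed by 1.41 ± 0.33, 1.40 ± 0.33 and 1.30 ± 0.33 and by 0.86 ± 0.28, 0.82 ± 0.28 and 0.70 ± 0.27 in untreated, vehicle and farnesol EAE. Parp12, which encodes another mono-ADP-ribosyltransferase, changed by 0.75 ± 0.23, 0.87 ± 0.23 and 0.71 ± 0.23. Dtx3l was closest to the threshold, with edgeR adjusted p = 0.0218, 0.0219 and 0.046, in untreated, vehicle and farnesol EAE. It was not called in untreated EAE without untreated replicate 9 (edgeR adjusted p = 0.0561) or in vehicle EAE without vehicle replicate 4 (edgeR adjusted p = 0.101). In farnesol EAE it was not called without any 1 of farnesol replicates 1, 3, 4, 5, 6 and 9 and naive replicates 1, 2, 3, 4, 6, 7 and 8 (edgeR adjusted p of 0.0513 to 0.114).

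The Schlafen genes, which act on growth of immune cells and on transfer RNA, all rose. Slfn2, known in mouse for keeping T cells and monocytes quiescent (chr11:83065112-83070678, plus strand), measured 3.48, 7.77 and 12.4 CPM in untreated EAE, 3.5, 4.83 and 19.1 CPM in vehicle EAE, 2.35, 6.26 and 12.3 CPM in farnesol EAE and 1.1, 1.9 and 2.28 CPM in naive brains. No EAE animal of any group overlapped the naive range. The log2 change of Slfn2 was 2.12 ± 0.34 in untreated EAE (edgeR adjusted p = 1.98e-05), 2.05 ± 0.34 in vehicle EAE (edgeR adjusted p = 2.09e-05) and 1.83 ± 0.33 in farnesol EAE (edgeR adjusted p = 6.84e-05). Slfn8 changed by 2.17 ± 0.49, 2.14 ± 0.49 and 1.82 ± 0.49 in untreated, vehicle and farnesol EAE, and Slfn5 by 0.78 ± 0.15, 0.69 ± 0.15 and 0.63 ± 0.15.

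The other 7 interferon induced genes rose in each group. Trim30a, which restrains Toll-like receptor signalling in mouse (chr7:104409025-104465193, minus strand), measured 5.21, 12.8 and 20.2 CPM in untreated EAE, 4.06, 7.37 and 35.5 CPM in vehicle EAE, 4.69, 8.64 and 25.1 CPM in farnesol EAE and 1.93, 2.99 and 4.38 CPM in naive brains. Untreated and farnesol animals were all above every naive animal, and the lowest vehicle animal was inside the naive range. Its log2 change was 1.93 ± 0.40 in untreated EAE (edgeR adjusted p = 0.000419), 1.91 ± 0.40 in vehicle EAE (edgeR adjusted p = 0.00034) and 1.71 ± 0.39 in farnesol EAE (edgeR adjusted p = 0.000904). Ifi27l2a, a small membrane protein gene, changed by 2.23 ± 0.48, 2.24 ± 0.48 and 2.25 ± 0.47 in untreated, vehicle and farnesol EAE, and Ifi44 by 1.94 ± 0.47, 1.79 ± 0.47 and 1.53 ± 0.47. Rtp4, a receptor transporter protein gene, changed by 1.80 ± 0.43, 1.79 ± 0.43 and 1.69 ± 0.42, and Lgals3bp, a secreted galectin-3 binding protein gene, by 1.70 ± 0.41, 1.60 ± 0.41 and 1.38 ± 0.40. Xaf1, a pro-apoptotic gene, changed by 1.31 ± 0.32, 1.22 ± 0.32 and 1.37 ± 0.31, and Samd9l, a brake on translation and growth, by 1.08 ± 0.25, 1.10 ± 0.25 and 0.80 ± 0.25.

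Individual animals without overlap give a second count. Every untreated EAE animal was above every naive animal for 17 of 35 genes (2.62% of all genes tested), every vehicle animal for 8 (3.79%) and every farnesol animal for 7 (3.23%). Zbp1, Ifitm3 and Slfn2 were the 3 genes without overlap in all 3 groups.

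The EAE animals differed widely from one another. The summed level of the 35 genes (lowest, median and highest animal) was 280, 505 and 886 CPM in untreated EAE, 252, 395 and 1531 CPM in vehicle EAE, 281, 482 and 1044 CPM in farnesol EAE, and 226, 233 and 251 CPM in naive brain. The highest over the lowest animal was 3.17-fold in untreated, 6.08-fold in vehicle and 3.72-fold in farnesol EAE, against 1.11-fold in naive brain. The median coefficient of variation over the 35 genes was 48.6% in untreated, 75.7% in vehicle and 49.9% in farnesol EAE, against 18.3% in naive brain. Over all tested genes these medians were 13.8%, 11.3%, 13.4% and 11.2% in the same order.

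The genes moved largely as a block between animals. In the farnesol group single genes departed from it: over the 35 genes replicate 1 ranked from 2 to 10 and replicate 4 from 2 to 9. Vehicle replicate 4 was the highest vehicle animal for 35 of 35 genes and the highest of all 36 animals for 34. Farnesol replicate 3 was the highest farnesol animal for 35 of 35 genes, and untreated replicate 9 was the highest untreated animal for 22. At the low end, untreated replicate 3 was lowest in its group for 24 genes, vehicle replicate 5 for 21 and farnesol replicate 10 for 18. Vehicle replicate 5 was above every naive animal for 12 of 35 genes, with a summed level of 252 CPM against the naive maximum of 251 CPM. Untreated replicates 6 to 9 were above every naive animal for all 35 genes, Ifit2 and Cmpk2 included. They were the animals with the highest summed levels of their group, 758 to 886 CPM. For single animals the share over all genes tested was not computed. Without vehicle replicate 4 the median log2 change over the genes in vehicle EAE against naive was 1.21, and without farnesol replicate 3 that in farnesol EAE was 1.27.

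**Figure D3:**
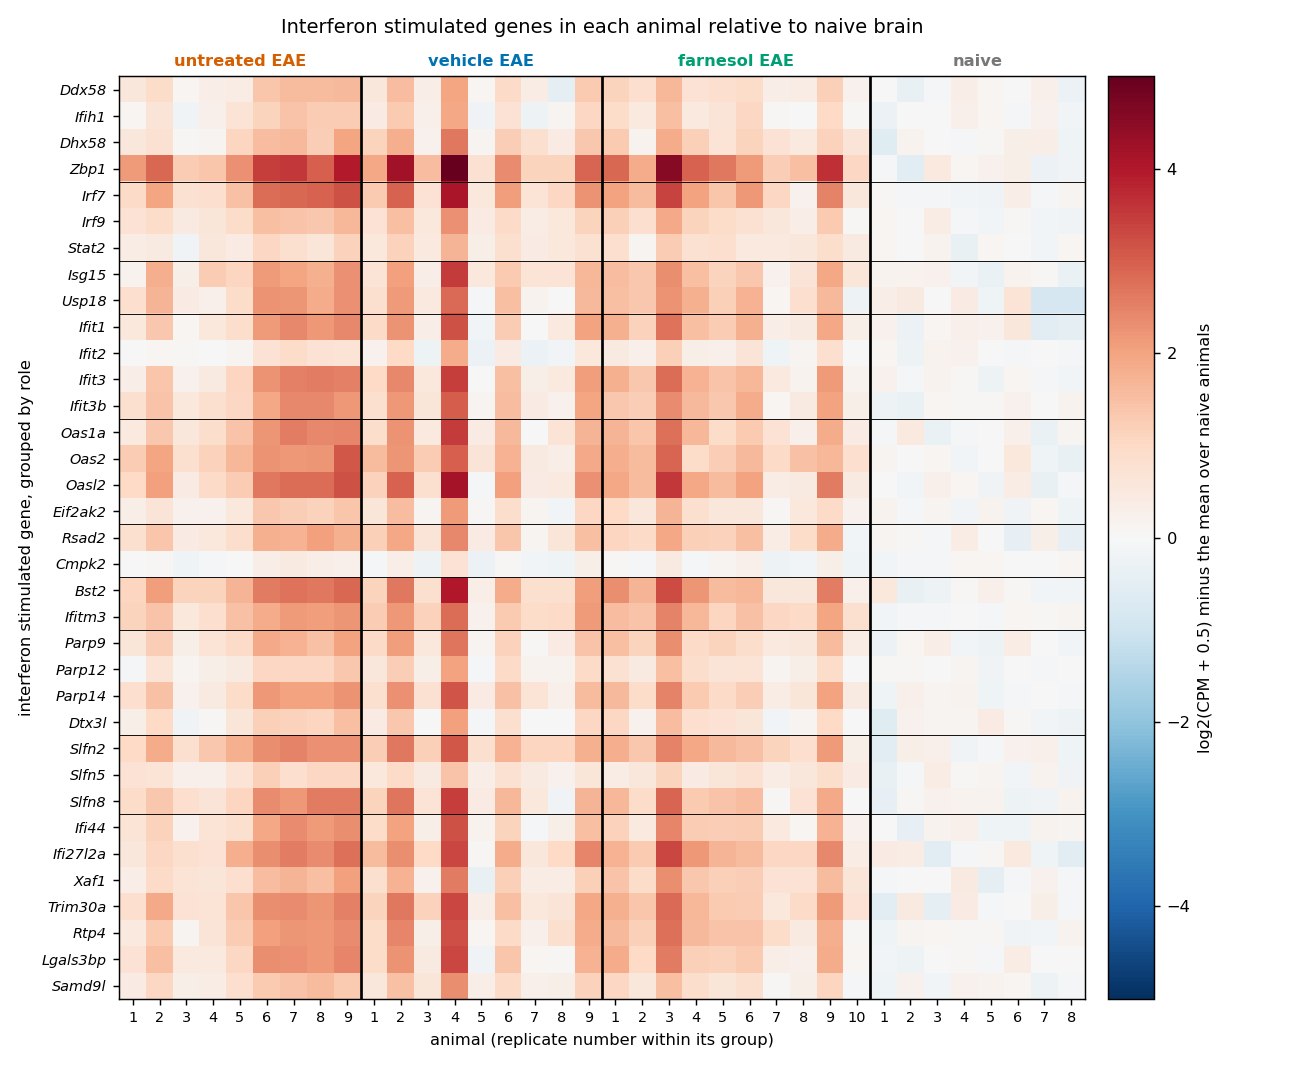
Log2(CPM + 0.5) of the 35 genes (rows, grouped by role) in each of 36 animals (columns, numbered within the untreated, vehicle, farnesol and naive groups), minus the naive mean of each gene. Columns are largely dark or pale as a whole, vehicle 4 and farnesol 3 are the darkest of their groups, and vehicle 5 and farnesol 10 are close to the naive columns.

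A transcript foreign to brain, Sbp (spermine binding protein, known from mouse prostate), was above 1 CPM in untreated libraries 1 to 5 and vehicle libraries 3 to 5. In the untreated group these 5 libraries were all below the other 4 for 34 of 35 genes. The share of all genes tested that split this way was not computed, so the count does not set the 35 genes apart. In the vehicle group the 3 included both the highest and the lowest animal. Without all 8 libraries the median log2 change in untreated EAE against naive was 2.28 and 35 of 35 genes rose, Ifit2 and Cmpk2 included, and 33 rose in vehicle EAE. Of all 19063 genes tested in that fit, 2092 rose in untreated and 2501 in vehicle EAE. The untreated libraries left out were the low ones for 34 of the 35 genes, so a higher median there was fixed by leaving them out. It is not a better estimate, and the part of the libraries with Sbp in the result was not tested. In the farnesol group the median of the 3 set 1 animals was above that of the 7 set 2 animals for 32 of 35 genes, and for no gene did the sets separate fully.

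Animals high in Irf7, Ifit3, Bst2 and Ifitm3 were mostly also high in Cd74, the MHC class II invariant chain, whose gene is induced by interferon gamma in myeloid cells. The other genes of the 35 were not correlated with Cd74. Farnesol replicate 2 had the lowest Cd74 of its group, 26.8 CPM, with a summed level of the 35 genes of 417 CPM, above the lowest of 281 CPM. Across the 9 untreated animals, Pearson's r with Cd74 on the log2(CPM + 0.5) scale was 0.97 for Irf7, 0.96 for Ifit3, 0.98 for Bst2 and 0.94 for Ifitm3, with Spearman's rho of 0.93, 0.83, 0.90 and 0.93. Across the 9 vehicle animals r was 0.98, 0.99, 0.98 and 0.95 for the same genes, with rho of 0.93, 0.97, 0.97 and 0.97. Across the 10 farnesol animals r was 0.84, 0.86, 0.87 and 0.82, with rho of 0.75, 0.90, 0.76 and 0.81. In the 12 relations the Benjamini-Hochberg adjusted two-sided permutation p (exact for 9 animals) was at most 0.0034 for r and at most 0.0172 for rho. Leaving out the 2 animals farthest from the median of Cd74 gave r between 0.88 and 0.97 in untreated, 0.86 and 0.98 in vehicle and 0.80 and 0.94 in farnesol EAE. Within the 7 farnesol animals of set 2, r was between 0.84 and 0.94. In the 6 vehicle animals without Sbp, a subset chosen after seeing the data, r was between 0.87 and 0.98. The 5 untreated libraries with Sbp had 46.0 to 193 CPM of Cd74, and the other 4 had 233 to 401 CPM. The split by Sbp thus separates Cd74 as it separates most of the 35 genes. The correlation was not computed within either part of the untreated group, and the permutation did not keep to this split.

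**Figure D4:**
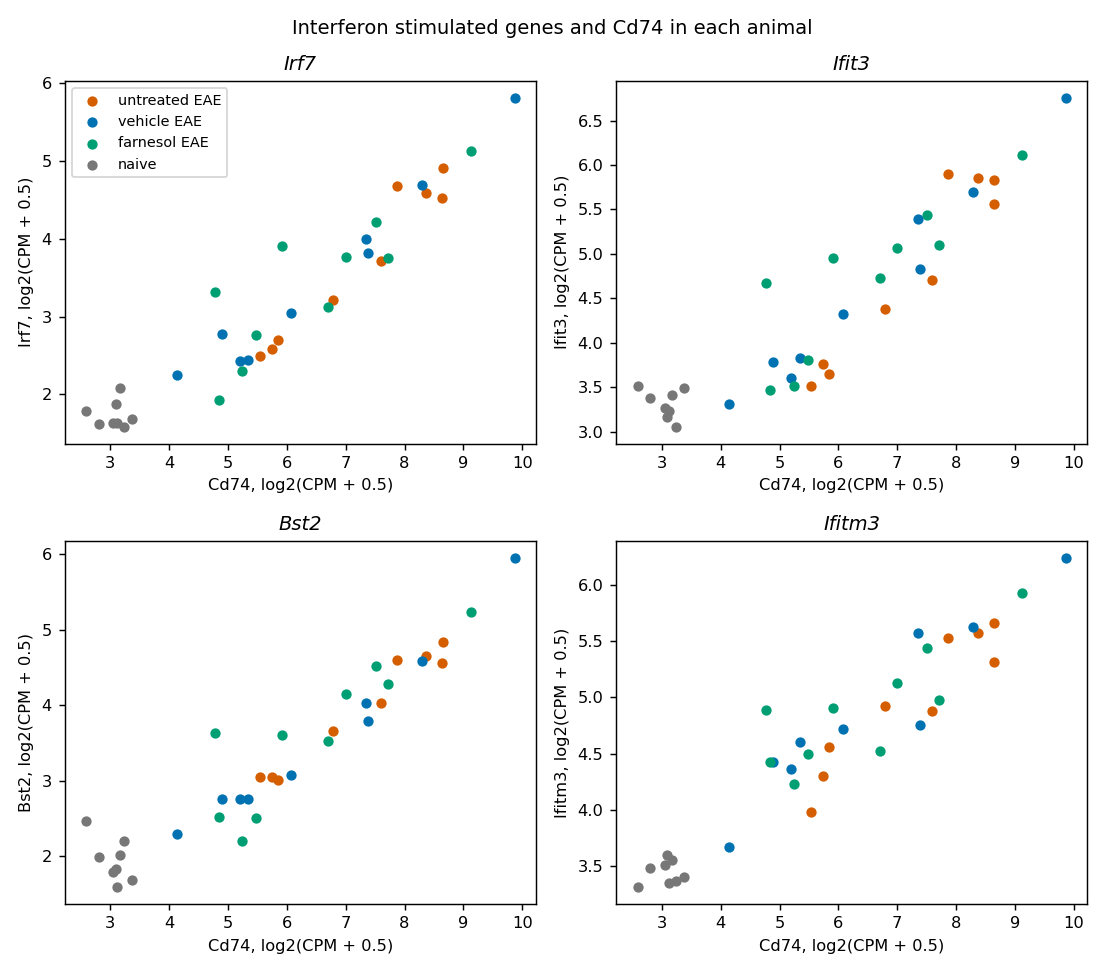
Irf7, Ifit3, Bst2 and Ifitm3 (y axes) against Cd74 (x axes), both as log2(CPM + 0.5), in each animal of the untreated, vehicle, farnesol and naive groups. Within each EAE group the points rise together, with r of 0.82 to 0.99, and the naive animals form a separate cluster at the low end.

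Markers of other cell types were high in some of the same animals. The summed level (lowest, median and highest animal) of 6 monocyte and macrophage markers was 12.6, 23.4 and 28.8 CPM in untreated EAE, 12.6, 18.6 and 54.4 CPM in vehicle EAE and 16.2, 19.7 and 40.0 CPM in farnesol EAE, against 7.13, 8.26 and 9.91 CPM in naive brain. Vehicle replicate 4 and farnesol replicate 3, the animals of their groups highest in the interferon stimulated genes, were highest of their groups in these markers, in the 6 microglial markers (598 and 549 CPM) and in the 6 T cell markers (20 and 18.3 CPM). Untreated replicate 9, with the highest summed level of the interferon stimulated genes in its group, was highest in T cell markers (15.5 CPM) but not in monocyte and macrophage markers (24.2 CPM) or microglial markers (483 CPM). The microglial sums were 233, 408 and 547 CPM in untreated, 203, 285 and 598 CPM in vehicle and 242, 328 and 549 CPM in farnesol EAE, against 251, 280 and 297 CPM in naive brain. In 5 neutrophil markers the same animals were not highest, with 31.9 CPM in vehicle replicate 4 (vehicle range 24.3 to 56.1 CPM) and 19.5 CPM in farnesol replicate 3, the lowest farnesol animal (range 19.5 to 63.0 CPM). The naive range of the neutrophil sum was 1.24 to 3.86 CPM. All 6 monocyte and macrophage markers and all 5 neutrophil markers rose in each EAE group, and 4, 4 and 3 of the 5 T cell markers tested rose in untreated, vehicle and farnesol EAE. Ccr2, the receptor of inflammatory monocytes, changed by 3.28 ± 0.41, 3.57 ± 0.41 and 3.40 ± 0.41 in this order. Of 6 microglial markers, 4 rose in untreated EAE, 1 rose and P2ry12 fell in vehicle EAE, and 1 rose in farnesol EAE. Of 6 markers of plasmacytoid dendritic cells, the main blood source of interferon alpha, 4 were tested. Siglech and Ccr9 were not called in any EAE group, Runx2 rose in each, and Tcf4 fell in vehicle and farnesol EAE, by 0.15 and 0.14 in log2. The summed level of the 6 markers was already 298 to 329 CPM in naive brain. Whether Tcf4 and Runx2 are particular to these cells in brain was not tested. Klk1 and Clec4b2 did not pass the filter on low counts, and Clec4b2 had 0 counts in all libraries. Bulk brain RNA cannot tell more cells of a type from more RNA per cell, and the part of these cells in the interferon stimulated genes was not tested.

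Between the EAE groups no gene of the 35 was called. Vehicle against untreated EAE, farnesol against vehicle and farnesol against untreated each called 0 of 35 genes by edgeR, 0 by DESeq2 and 0 at an unadjusted p below 0.05. Over all genes, the unadjusted share was 8.25%, 5.59% and 14.4%, and the adjusted test called none that rose (0%) and 0.0217% that fell for vehicle against untreated, 0.0814% and 0.0108% for farnesol against vehicle, and 0.96% and 0.911% for farnesol against untreated. The median log2 change over the 35 genes was -0.03 for vehicle against untreated (from -0.34 to 0.22), -0.13 for farnesol against vehicle (from -0.32 to 0.14) and -0.18 for farnesol against untreated (from -0.41 to 0.08). Of the 35 estimates, 3 were above 0 and 32 below 0 for farnesol against vehicle, and 4 were above and 31 below for farnesol against untreated. Over all genes tested, 48.5% and 51% were above 0. The genes move largely together between animals, so this count describes the block and is not 35 separate observations. The direction for farnesol against vehicle rests on 1 animal: without vehicle replicate 4 the median was 0.23. Without farnesol replicate 3 it was -0.33. For farnesol against untreated the median lay between -0.37 and -0.08 whichever library was left out. With library set as a term the median was 0.29 for farnesol against vehicle and 0.27 for farnesol against untreated. For vehicle against untreated the median lay between -0.38, without vehicle replicate 4, and 0.08 when 1 library was left out. Over the other alternatives run it lay between -0.79 and -0.03 for vehicle against untreated, and between -0.69 and 0.27 for farnesol against untreated. The medians near 0 between EAE groups therefore depend on the libraries and the model used.

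The 95% intervals below come from the fit with group as its only term. All vehicle and untreated libraries are in set 1 and 7 of the 10 farnesol libraries are in set 2, so the intervals do not bound an effect of farnesol apart from set. Against vehicle, Irf7 differed by -0.29 (95% interval -1.14 to 0.56), Isg15 by -0.30 (95% interval -1.01 to 0.41) and Ifitm3 by -0.10 (95% interval -0.60 to 0.40) in log2. For 28 of 35 genes the 95% interval lay inside a 2-fold change in either direction for farnesol against vehicle, and this held for 26 for farnesol against untreated and 32 for vehicle against untreated. Such counts were not made over all genes tested, so they do not set the 35 genes apart from other genes. Zbp1 had the widest interval, -0.26 (95% interval -1.32 to 0.79) against vehicle. The smallest unadjusted p for farnesol against vehicle was that of Samd9l, at -0.30 ± 0.23 (edgeR adjusted p = 0.998), and for farnesol against untreated that of Oas2, at -0.41 ± 0.32 (edgeR adjusted p = 0.618).

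**Figure D5:**
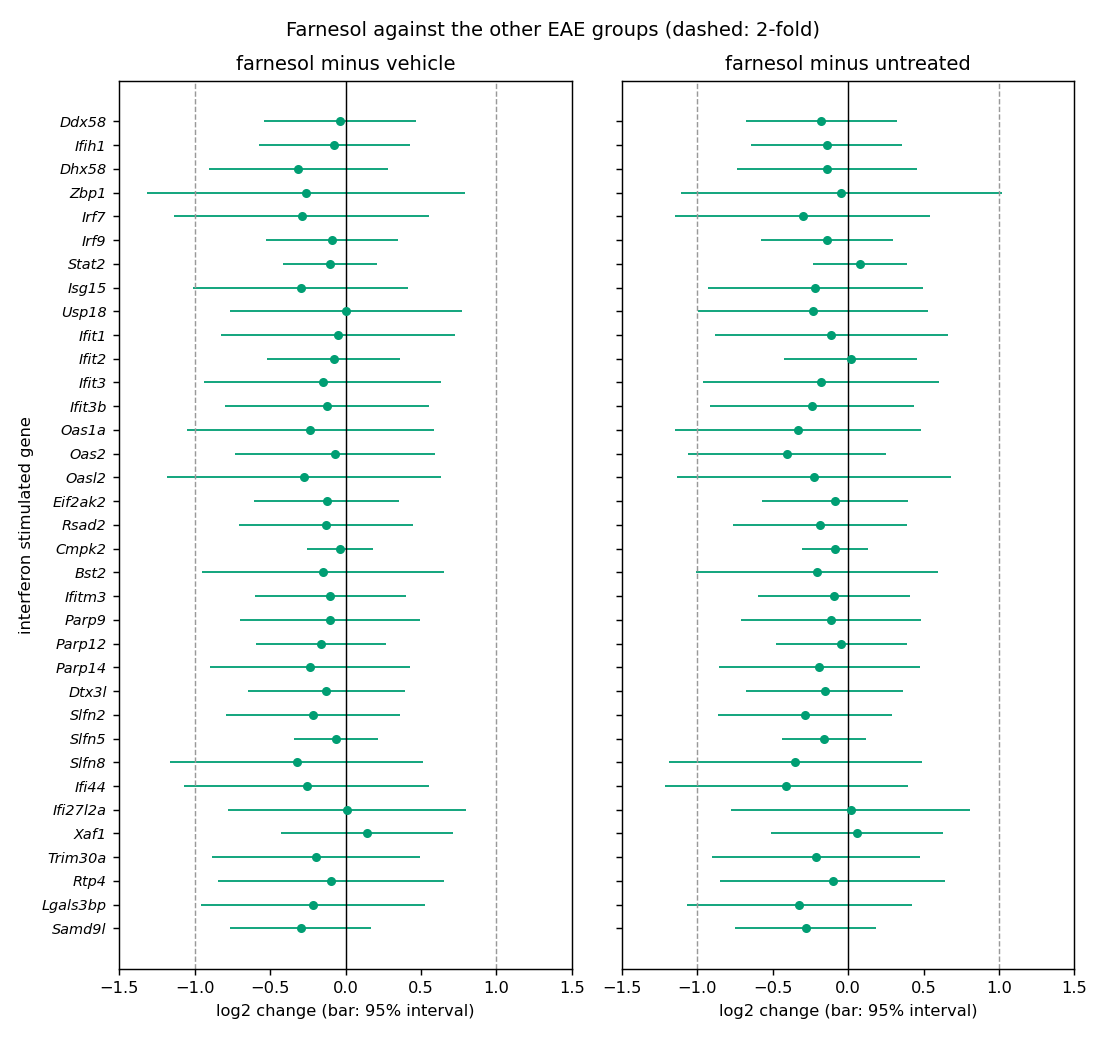
Log2 change (x axis, with 95% intervals) of the 35 genes (rows) for farnesol minus vehicle EAE and farnesol minus untreated EAE, with dashed lines at a 2-fold change. All intervals include 0, and the widest, that of Zbp1, reaches -1.32 against vehicle.

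The ligands that would start the pathway had few counts. Of 18 genes of the interferon alpha, beta, kappa, epsilon and zeta families, none passed the filter on low counts. Ifnb1, the gene of interferon beta, had 3 counts in all 9 vehicle libraries together and 0 in all untreated, all farnesol and all naive libraries. Ifng, the gene of interferon gamma, had 11 counts over the untreated, 14 over the vehicle and 7 over the farnesol libraries, and 0 over the naive libraries. None of these ligands was tested between groups.

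Fewer of the receptor and kinase genes passed. Of 8 receptor and kinase genes, 3, 4 and 4 rose in untreated, vehicle and farnesol EAE, 0, 1 and 1 fell, and the median log2 changes were 0.21, 0.20 and 0.19. The log2 changes of Ifnar1 were 0.13 ± 0.06, 0.14 ± 0.06 and 0.17 ± 0.05 (edgeR adjusted p = 0.0935, 0.0465 and 0.0143), and those of Ifnar2 were 0.19 ± 0.11, 0.19 ± 0.11 and 0.16 ± 0.11 (edgeR adjusted p = 0.236, 0.209 and 0.281). Tyk2 rose by 0.46 ± 0.08, 0.52 ± 0.08 and 0.55 ± 0.08, and Jak1 fell in vehicle and farnesol EAE, with changes of -0.13 ± 0.04 and -0.15 ± 0.04.

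Transcription factors outside the list rose in 6, 6 and 5 of 7 genes. Irf8, a factor of the myeloid lineage, rose by 1.59 ± 0.38, 1.60 ± 0.38 and 1.45 ± 0.37 in untreated, vehicle and farnesol EAE, Irf1, the main interferon gamma induced factor, by 1.39 ± 0.39, 1.73 ± 0.39 and 1.51 ± 0.38, and Irf3, which starts transcription of interferon beta, by 0.44 ± 0.09, 0.51 ± 0.09 and 0.39 ± 0.09. Of 11 sensing and induction genes tested, 6, 7 and 8 rose, Tlr7, the endosomal sensor of single-stranded RNA, by 1.43 ± 0.26, 1.32 ± 0.26 and 1.16 ± 0.26 and Ikbke, a kinase of Irf3, by 1.54 ± 0.29, 1.44 ± 0.29 and 1.41 ± 0.29. Of 8 negative regulators tested, 4, 5 and 4 rose, among them Socs3, which blocks cytokine receptor signalling, by 1.40 ± 0.24, 1.48 ± 0.24 and 1.31 ± 0.24 and the phosphatase gene Ptpn6 by 1.79 ± 0.36, 1.85 ± 0.36 and 1.67 ± 0.36.

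A further 32 interferon stimulated genes outside the list moved in the same direction, with 26, 24 and 24 that rose in untreated, vehicle and farnesol EAE, none that fell, and median log2 changes of 1.22, 1.29 and 1.12. Ifi204, a DNA sensor gene of the p200 family, rose by 4.16 ± 0.69, 4.23 ± 0.69 and 4.12 ± 0.69, Oas3 by 3.68 ± 0.65, 3.73 ± 0.64 and 3.59 ± 0.64 and Helz2, a nuclear receptor coactivator, by 1.18 ± 0.16, 1.11 ± 0.16 and 0.94 ± 0.16. All 17 interferon gamma induced genes rose in each group, with median log2 changes of 2.43, 2.84 and 2.66. Among them the chemokine gene Cxcl10 rose by 4.67 ± 0.89, 5.11 ± 0.89 and 4.46 ± 0.89 and the guanylate binding protein gene Gbp5 by 2.33 ± 0.52, 2.58 ± 0.52 and 2.57 ± 0.51. Many genes of both lists respond to both interferon types, and whether one list changed more than the other was not tested. For farnesol against vehicle no gene of either list was called, with medians of -0.16 and -0.31.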

How the data were processed

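Whole-brain RNA of 36 mice was made into NEBNext Ultra libraries from 1 µg of RNeasy-extracted RNA, per the labels' protocols. The authors deposited a table of raw read counts per Ensembl gene. Reads were mapped with STAR 2.5 to mm10, per the submitters' processing notes; the extraction protocol also names Kallisto, and for the counter, annotation and strand setting the sources used here give nothing. GENCODE M21 supplied symbols and GRCm38 coordinates by identifier (54409 named, 99.9% of counts).

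Genes passed filterByExpr (minimum count 10, minimum total 15). All 36 libraries entered 1 quasi-likelihood fit in edgeR 4.0.16 (R 4.3.3), TMM scaled, with the group as its only term and two-sided p. SE is the log2 change over the square root of F. DESeq2 1.42.0 was an alternative, and the other alternatives are given with their effects. Correlations used permutation in scipy 1.17.1.

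The genes and lists were chosen with earlier results of these data known. Named genes outside the 35 are up to 4 of smallest p of each list in untreated EAE, plus Ifnb1, Ifng, Ifnar1 and Ifnar2; 1 further gene of this rule is not reported here. Jak1 and the markers of plasmacytoid dendritic cells were named after their values were seen. The pipeline was tested on simulated data. No 2 libraries were alike within sampling noise.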

Additional observations from a re-analysis of the deposited data

Results flagged for a closer look

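In 41 of the 140 combinations of gene and group, 1 animal stood apart from the rest of its group on the CPM scale by Dixon's criterion, which chance passes in about 1 of 20 groups. On the log2(CPM + 0.5) scale 1 combination did, Oas2 in farnesol replicate 3. The genes move largely together between animals, so the 41 are not separate observations.

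Vehicle replicate 4 stood apart as the highest vehicle animal for 22 genes, at these CPM values: Dhx58 (13.2), Irf7 (55.7), Irf9 (58.1), Stat2 (105), Isg15 (27), Ifit1 (36.8), Ifit2 (45.1), Ifit3 (108), Ifit3b (41.3), Oas1a (15.8), Oas2 (10.8), Oasl2 (109), Bst2 (61.3), Parp12 (53.4), Parp14 (46.2), Dtx3l (30.2), Slfn5 (28.4), Ifi44 (14), Ifi27l2a (16.2), Xaf1 (30.6), Lgals3bp (214) and Samd9l (28.5). Farnesol replicate 3 stood apart as the highest farnesol animal for 16 genes, at these CPM values: Zbp1 (18.5), Irf7 (34.5), Irf9 (44.2), Ifit1 (27.1), Oas1a (9.41), Oas2 (9.98), Oasl2 (69.2), Eif2ak2 (24.8), Parp9 (20.2), Parp12 (37.4), Slfn8 (11.8), Ifi27l2a (16.1), Xaf1 (25.6), Trim30a (25.1), Rtp4 (18.1) and Lgals3bp (129). Untreated replicate 9 was apart for Oas2, at 11.6 CPM, and naive replicate 6 was apart for Oas2 (1.52) and Lgals3bp (27.3) in CPM.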

How the results depend on the processing

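The count of 33 genes that rose against naive was 33 in each EAE group with RLE scaling, DESeq2, a stricter filter and without libraries low in cerebellar genes. It was 33, 33 and 32 in untreated, vehicle and farnesol EAE without a filter, and 34, 33 and 34 in fits of only the groups compared. With library set as a term, 0, 0 and 25 genes rose, with medians of 0.94 and 0.93 in untreated and vehicle EAE. In that fit Cmpk2 was -0.0153 in untreated and -0.0676 in vehicle EAE, Samd9l was 0.0463 for farnesol against vehicle, and Oas2 was 0.23 for farnesol against untreated. Within set 1 alone Samd9l was 0.039 and Oas2 was 0.22. Without libraries with Sbp, which in untreated EAE were the low ones for most of the genes, the median in untreated EAE was 2.28. In that fit 34 genes rose in farnesol EAE, and Stat2 was -0.19 for vehicle against untreated. In each case the cause was not tested. The library set and Sbp alternatives were chosen with these data seen. Leaving out 1 library gave 32 to 33 genes in untreated, 31 to 34 in vehicle and 31 to 33 in farnesol EAE, and Cmpk2 in vehicle EAE ranged from -0.00961 to 0.132. No gene was called between the EAE groups in any alternative run.

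Replicate numbers did not pair animals: the correlation of deviations over 51 same-numbered pairs had a median of 0.008, from -0.334 to 0.381, with 10 above 0.1. With the replicate block 33, 31 and 32 genes rose. The interferon ligand genes had too few counts to pass the filter and were not tested.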
